A study of Rattus norvegicus with 24 samples.

Results

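Erap1 and the 6 expressed genes closest to it on rat chromosome 2 were followed in the cerebral cortex of 24 newborn Sprague Dawley rats. Erap1 was selected on measured values, since it had one of the smaller p-values of all genes when the 2 conditions of the study were compared. Its neighbours were chosen by position alone, as the 6 genes with the nearest start that exceeded 1 CPM (the reads of a gene scaled to the total of its library) in at least 4 samples. They make up 7 of the 14348 genes that passed this filter, out of 26404 listed.

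Pups of the saline pump condition were born to 3 dams that had been anesthetized late in gestation for the implantation of a subcutaneous pump filled with saline. Pups of the spontaneous labor condition came from 3 dams that had no surgery and no anesthesia. All dams delivered spontaneously, and 2 male and 2 female pups were taken from each litter on postnatal day 0, which gave 12 pups per condition. The right cerebral cortex was extracted whole and its RNA was sequenced with an oligo-dT protocol. In such bulk tissue, fewer cells of a type and less RNA per cell cannot be told apart. Since each dam had 1 condition, the 4 pups of a litter shared their dam as well as their exposure, and p-values that count pups as separate samples do not measure the spread between only 3 dams per condition.

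Erap1 encodes endoplasmic reticulum aminopeptidase 1, which trims peptides to the length that fits the groove of major histocompatibility complex class I molecules before these leave the endoplasmic reticulum. It belongs to the oxytocinase subfamily of M1 zinc aminopeptidases, named after the relative that cleaves oxytocin in pregnancy. Its neighbour Cast encodes calpastatin, the endogenous inhibitor of the calpains, which are calcium-dependent cysteine proteases of the cytosol. Developing neurons hold little class I on their surface compared with immune cells, and class I molecules are known to take part in the refinement of synapses. The question put to the data was whether the difference of Erap1 between the conditions was of Erap1 alone or of the whole stretch of chromosome.

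In Rnor_5.0, the build of the deposited files, Erap1 (ENSRNOG00000009997) lies on the plus strand at chr2:1381110-1419644, with 2917 exonic bases in 19 blocks. Cast (ENSRNOG00000010286) lies on the minus strand at chr2:1422027-1530718, with 4619 exonic bases in 29 blocks. The ends of both genes face each other and are separated by 2382 bases. The other neighbours were much farther away. ENSRNOG00000027089 starts 1069 kb from the start of Erap1, ENSRNOG00000012183 at 1223 kb, ENSRNOG00000012414 at 1245 kb, ENSRNOG00000012770 at 1347 kb and ENSRNOG00000012810 at 1387 kb. All lie on the side of Cast, because only 1 listed gene has a smaller start than Erap1 and it exceeded 1 CPM in 0 samples. Between Erap1 and the sixth neighbour, 8 further listed genes failed the filter, and the highest mean among them was 0.0938 CPM. The seventh gene, just outside the set, starts at 1431 kb and had a mean of 3.89 CPM. None of the 7 genes shares an exonic base with another listed gene.

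The files name genes by identifier only, and the names Erap1 and Cast come from the supplementary tables of the study, which pair 967 identifiers with a symbol. In the RefSeq annotation of a later rat assembly, GRCr8, the protein-coding genes that follow Erap1 are Cast, Pcsk1, LOC134485562, Ell2, Glrx, Rhobtb3, Spata9 and Rfesd. None of these names could be tied to the 5 farther identifiers, which are therefore used as they stand.

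All 7 genes exceeded 1 CPM in 24 of 24 pups. Per exonic length, the order of the mean levels was led by ENSRNOG00000012183 at 61.5 ± 4.26 RPKM (CPM scaled further to exonic length; SD, n = 24). ENSRNOG00000012810 came next at 11.4 ± 0.999 RPKM, and both stood above the gene that followed them in 24 of 24 pups. Erap1 had 4.59 ± 0.736 RPKM, Cast 4.08 ± 0.490 RPKM, ENSRNOG00000012414 3.92 ± 0.482 RPKM, ENSRNOG00000027089 3.21 ± 0.477 RPKM and ENSRNOG00000012770 2.57 ± 0.518 RPKM. Erap1 was above Cast in 20 of 24 pups although their ranges overlapped. Cast and ENSRNOG00000012414 could not be ordered beyond their spread, as Cast was the higher in 14 of 24 pups. Erap1 was counted with 143 to 273 reads per pup. The library totals behind these reads were 12170547 to 19260066 in the saline pump pups and 14053860 to 17281461 in the spontaneous labor pups.

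Erap1 was higher in the spontaneous labor pups than in the saline pump pups. In saline pump litter 1, the 2 males had 12.8 and 12.5 CPM and the 2 females 10.6 and 11.8 CPM. In litter 2 of that condition the males had 13.01 and 12.1 CPM and the females 12.4 and 10.2 CPM, and in litter 3 the males had 11.996 and 12.6 CPM and the females 12.6 and 14.6 CPM. The 12 saline pump pups therefore formed a narrow band from 10.2 to 14.6 CPM, with the top taken by 1 female of litter 3. In spontaneous labor litter 1 the males had 11.3 and 12.2 CPM and the females 13.7 and 15.5 CPM. Litter 2 gave 14.7 and 10.8 CPM in males and 13.96 and 15.9 CPM in females, and litter 3 gave 15.2 and 18.96 CPM in males and 14.5 and 17.4 CPM in females. These pups were spread more widely, and the groups overlapped: 6 of 12 spontaneous labor pups were above the highest saline pump pup and 9 of 12 were above the saline pump median of 12.4 CPM.

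**Figure D1:**
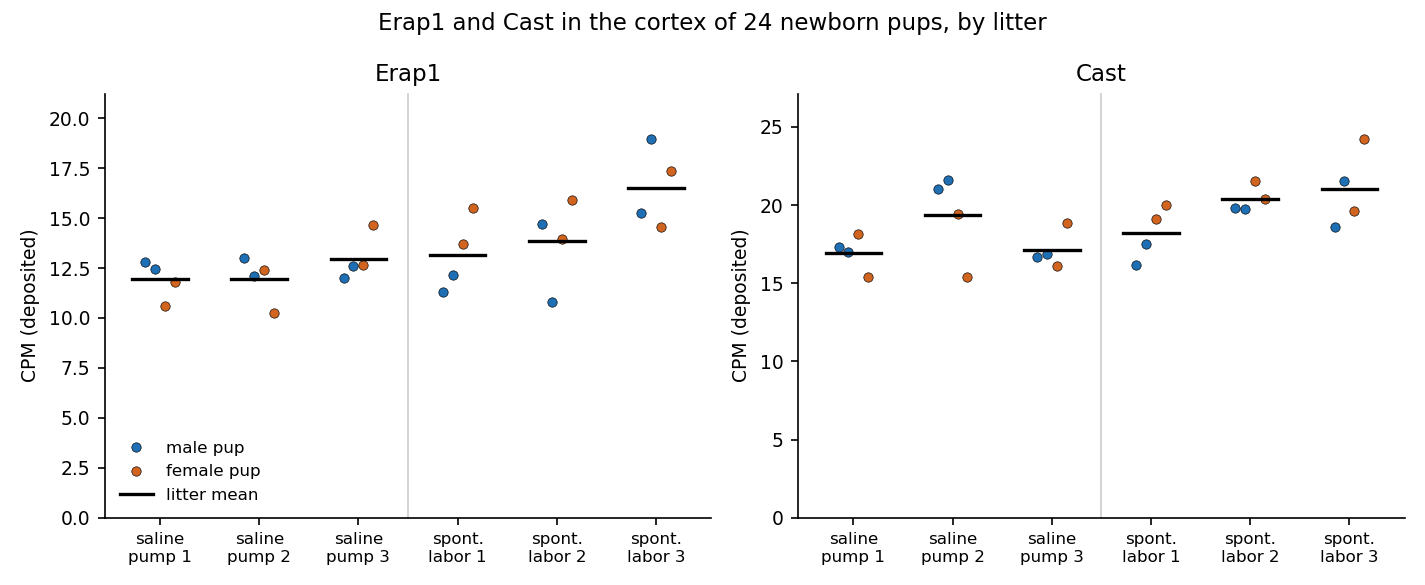
Deposited CPM of Erap1 (left) and Cast (right) in each of 24 pups, by condition and litter, with males in blue, females in orange and the litter mean as a black bar. The 3 spontaneous labor litter means of Erap1 (13.2 to 16.5 CPM) all lie above the 3 saline pump litter means (11.9 to 12.97 CPM), while those of Cast overlap.

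The condition means of Erap1 were 12.3 ± 1.13 CPM with the saline pump and 14.5 ± 2.37 CPM after spontaneous labor (SD, n = 12 each), a ratio of 1.18. In the model with 6 surrogate variables (estimated factors for variation that the condition does not explain), the log2 fold change was 0.38 with an SE of 0.0719 that takes no account of how Erap1 was chosen. No test is given for this difference, because it is the one on which Erap1 was chosen. Litter means were 11.9, 11.9 and 12.97 CPM in the saline pump litters and 13.2, 13.8 and 16.5 CPM in the spontaneous labor litters. They did not overlap, and litter means were separated in the same direction for 2.91% of all genes. Spontaneous labor litter 3 stood apart, with 3 of its 4 pups above the highest saline pump pup. Without it, the log2 fold change was 0.22, and without the surrogate variables it was 0.24 over all litters. With both left out, a fit chosen after seeing the data, it was 0.14.

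Cast, the calpain inhibitor gene next to Erap1, leaned the same way but did not pass the test. In saline pump litter 1 the males had 17.3 and 16.98 CPM and the females 18.2 and 15.4 CPM. In litter 2 the values were 21.03 and 21.6 CPM in males and 19.4 and 15.4 CPM in females, and in litter 3 they were 16.7 and 16.9 CPM in males and 16.1 and 18.8 CPM in females. The 2 males of litter 2 were thus the highest of the saline pump pups. In spontaneous labor litter 1 the males had 16.2 and 17.5 CPM and the females 19.1 and 19.99 CPM. Litter 2 had 19.8 CPM in both males, and 21.6 and 20.4 CPM in the females, while litter 3 had 18.6 and 21.5 CPM in males and 19.6 and 24.2 CPM in females. Only 1 spontaneous labor pup, a female of litter 3, was above the highest saline pump pup, but 11 of 12 were above the saline pump median of 17.1 CPM.

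Means of Cast were 17.8 ± 2.05 CPM with the saline pump and 19.9 ± 2.05 CPM after spontaneous labor (SD, n = 12 each). The log2 fold change was 0.22 (SE 0.0670, 95% interval 0.0869 to 0.36), with p = 0.00244 and an adjusted p = 0.268 in edgeR's quasi-likelihood test over all 14348 genes. Litter means of 16.96, 19.4 and 17.1 CPM against 18.2, 20.4 and 21.003 CPM overlapped. With the counts of each litter summed, so that the 6 dams were the samples, the log2 fold change was 0.15 with an adjusted p = 0.9999 in edgeR. That fit called 0 of all 14348 genes, so this adjusted p does not set Cast apart from other genes. At an unadjusted p under 0.05 it had 0 of the 6 neighbours, against 240 of all genes. Cast passed the threshold when saline pump litter 2 was left out, at a log2 fold change of 0.27 and an adjusted p = 0.0266 in edgeR, where 0.502% of all genes were called. Over the other alternatives its adjusted p was 0.106 or more. Since Cast varied together with Erap1 among littermates (described further on), its condition difference is not independent of the choice of Erap1.

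Across the 6 neighbours, 0 passed the threshold of an adjusted p of 0.05 in edgeR, against 0.00697% of all genes, which is 1 gene. At an unadjusted p under 0.05 the count was 1 of 6, Cast, against 8.38% of all genes. limma and DESeq2 also called 0 of 6, where they called 11 and 16 of all 14348 genes. At an unadjusted p under 0.05, limma had 2 of 6 against 1532 of all genes. DESeq2 had 1 of 6 against 915 of all genes. Of the neighbours 5 had a higher and 1 a lower fitted level after spontaneous labor, with a median log2 fold change of 0.054, beside 0.0014 over all genes.

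None of the 5 farther neighbours passed the test in edgeR, and their fitted log2 fold changes ran from -0.10 to 0.084. ENSRNOG00000027089 ranged from 6.01 through a median of 7.14 to 9.68 CPM in saline pump pups and from 5.56 through 7.53 to 9.24 CPM in spontaneous labor pups. A log2 fold change of 0.072 was fitted (95% interval -0.12 to 0.27), at an adjusted p = 0.880 in edgeR. The groups overlapped over nearly their whole range.

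ENSRNOG00000012183, the most abundant of the set, ranged from 68.7 through 77.3 to 88.0 CPM and from 72.4 through 79.7 to 93.5 CPM in the same order of conditions. With 897 to 1532 reads per pup it had the narrowest interval, at a log2 fold change of 0.020 (95% interval -0.059 to 0.099, adjusted p = 0.925 in edgeR).

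ENSRNOG00000012414 was the only neighbour with a lower fitted level after spontaneous labor. Its pups ranged from 15.4 through 19.8 to 23.7 CPM with the saline pump and from 14.99 through 18.5 to 22.5 CPM after spontaneous labor, for a log2 fold change of -0.10 (95% interval -0.24 to 0.033, adjusted p = 0.706 in edgeR). Its litter means in CPM were 19.7, 18.8 and 20.7 with the saline pump and 18.7, 18.7 and 17.7 after spontaneous labor. They were separated by a small margin, as were those of 3.25% of all genes in this direction, and overlapped once the libraries were scaled by TMM (trimmed mean of M-values).

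ENSRNOG00000012770, with only 27 to 55 reads per pup, ranged from 1.93 through 2.61 to 3.66 CPM and from 1.79 through 2.77 to 3.49 CPM. Its interval was the widest of the set, from -0.19 to 0.36 around a log2 fold change of 0.084 (adjusted p = 0.903 in edgeR). A log2 fold change of 0.22, as in Cast, lies within that interval and also within that of ENSRNOG00000027089. Whether a difference of that size could be detected at this depth was not tested. ENSRNOG00000012810 ranged from 7.21 through 8.97 to 9.53 CPM and from 7.81 through 8.81 to 10.49 CPM, with a log2 fold change of 0.035 (95% interval -0.092 to 0.16, adjusted p = 0.917 in edgeR).

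**Figure D2:**
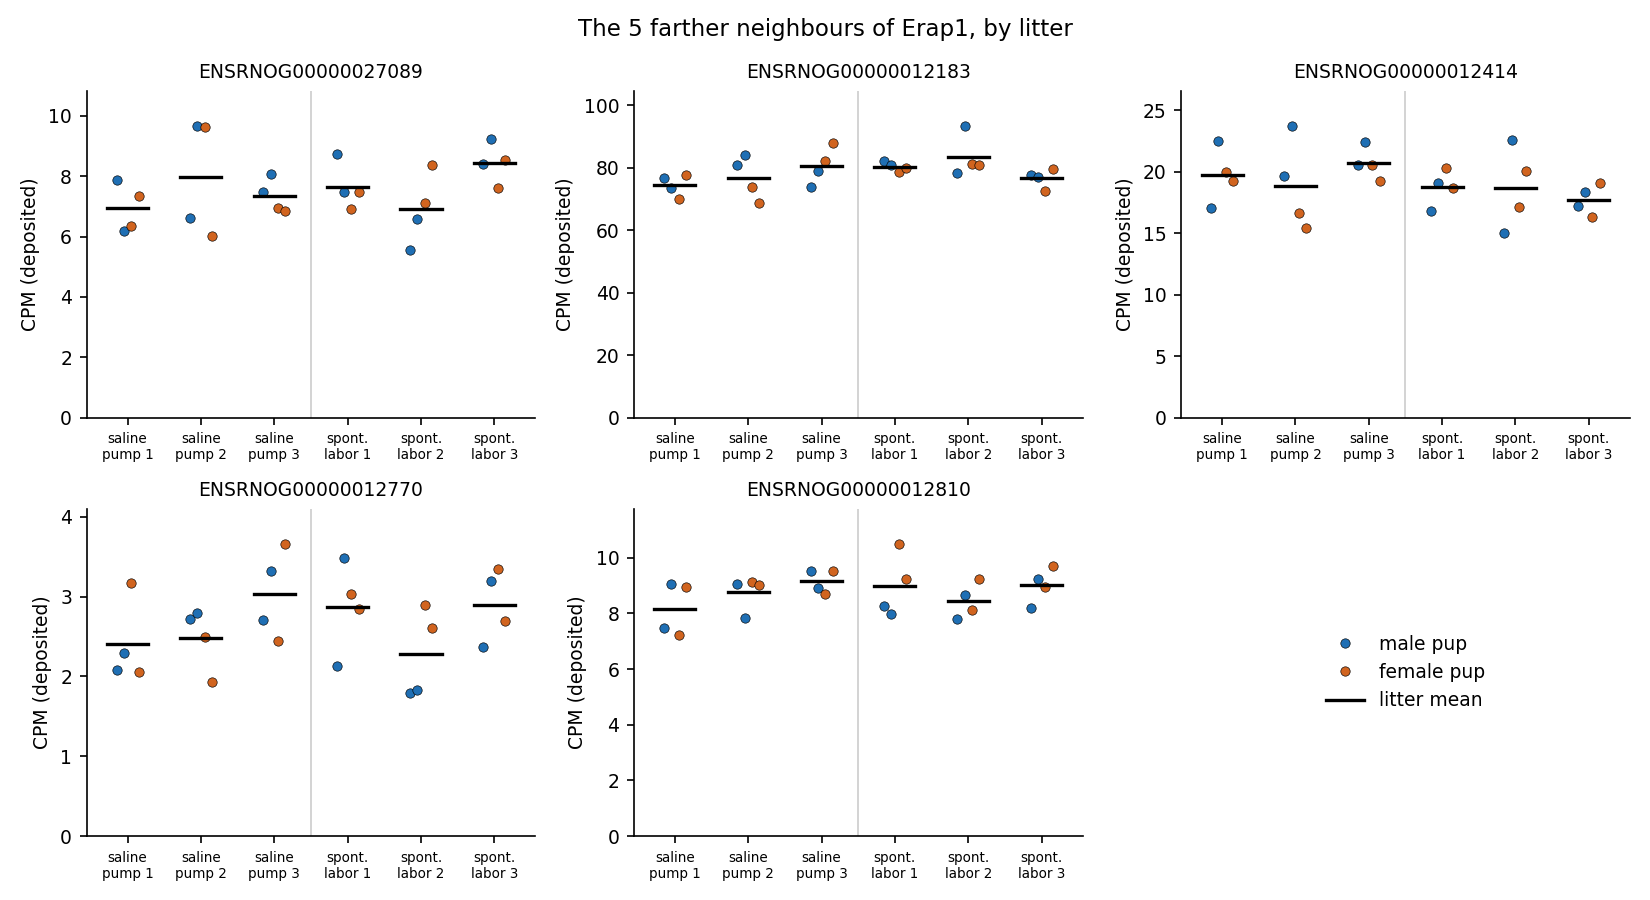
Deposited CPM of the 5 farther neighbours in each of 24 pups, by condition and litter, with males in blue, females in orange and litter means as black bars. Pups of both conditions cover much the same range in every panel, from about 1.79 to 3.66 CPM in ENSRNOG00000012770 to 68.7 to 93.5 CPM in ENSRNOG00000012183.

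The stretch was widened to the 20 nearest genes that passed the filter, out to 7946 kb. Of these, 0 passed the adjusted threshold in edgeR, limma or DESeq2. The lean of the 6 neighbours, with 5 higher and 1 lower, did not carry over. Among the 20, 10 had a higher and 10 a lower fitted level after spontaneous labor, and the median log2 fold change was -0.0047. Unadjusted, 2 of 20 were under 0.05 in edgeR, against 8.38% of all genes. These 2 were Cast and ENSRNOG00000045649, 7237 kb away. The latter had a lower fitted level by a log2 fold change of -0.33 (p = 0.0125, adjusted p = 0.419 in edgeR). The highest log2 fold change among the 20 was the 0.22 of Cast. By direction, the stretch was evenly split.

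**Figure D3:**
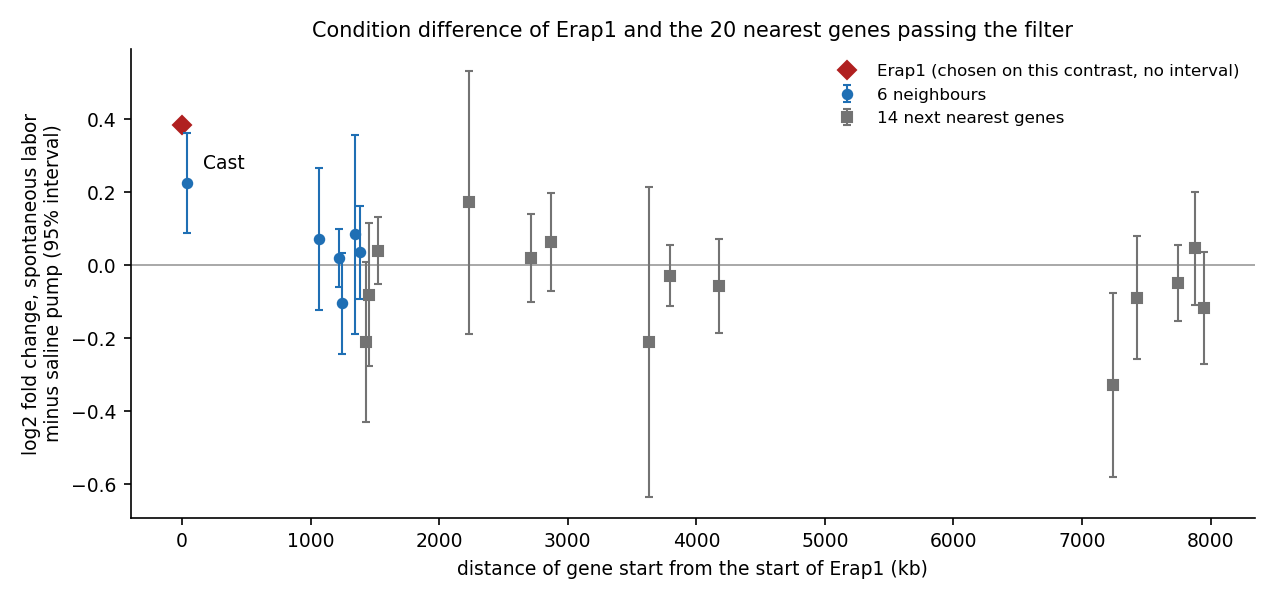
Log2 fold change (spontaneous labor minus saline pump) against the distance of each gene's start from that of Erap1 in kb, for Erap1 (red diamond, no interval since it was chosen on this contrast) and, with 95% intervals, its 6 neighbours (blue) and the 14 next nearest genes (grey). Erap1 at 0.38 and Cast at 0.22 stand above the rest of the 20, which spread from -0.33 to 0.17 on both sides of 0.

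Sex was compared within litters, a contrast that played no part in choosing Erap1. None of the 7 genes passed the test in edgeR, 0 of 7 also had an unadjusted p under 0.05 against 9.49% of all genes, and limma and DESeq2 likewise called 0 of 7. Of all 14348 genes, edgeR called 0.0488%, limma called 13 and DESeq2 called 17. Erap1 differed by a log2 fold change of 0.044 (female minus male, 95% interval -0.095 to 0.18, adjusted p = 0.860 in edgeR) and Cast by 0.026 (95% interval -0.090 to 0.14, adjusted p = 0.909). The lowest adjusted p in the set was the 0.644 of ENSRNOG00000012810, with a log2 fold change of 0.084.

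The 2 sexes were not shown to differ in the condition difference. Erap1 had 12.5 ± 0.393 CPM in saline pump males and 12.1 ± 1.59 CPM in saline pump females, against 13.9 ± 3.08 CPM in spontaneous labor males and 15.2 ± 1.37 CPM in spontaneous labor females (SD, n = 6 each). Cast had 18.4 ± 2.26 and 17.2 ± 1.81 CPM in saline pump males and females, and 18.9 ± 1.89 and 20.8 ± 1.86 CPM in spontaneous labor males and females. Females thus spanned the larger gap in both genes, and all 6 spontaneous labor females of Erap1 were at 13.7 CPM or more. Both genes are listed in the study's table of genes selected by p-value for the condition in female pups. For Erap1, the larger gap in females is therefore not free of that choice. Cast was chosen by position, and the listing gave it only its symbol. The gap of Cast is still not independent of the choice of Erap1, with which it varied among littermates. Fitted within each sex alone, without surrogate variables, the log2 fold change was 0.33 in females and 0.15 in males for Erap1, and 0.27 and 0.043 for Cast. The interaction itself was 0.19 for Erap1 (95% interval -0.087 to 0.46) and 0.22 for Cast (95% interval 0.0005 to 0.43, unadjusted p = 0.0496), both at an adjusted p = 0.999 in edgeR. None of the 7 genes passed in edgeR, limma or DESeq2, where 0 of all 14348 genes passed as well. The lowest adjusted p over all genes in edgeR was 0.999, so these adjusted values do not set the 7 genes apart. In edgeR 1 of 7 had an unadjusted p under 0.05, against 3.73% of all genes.

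Litters of one condition differed in many genes, but edgeR called none of the 7 here. The test between the 3 litters of each condition called 33.7% of all genes in edgeR and 0 of the 7. Erap1 had p = 0.0663 and an adjusted p = 0.135, and Cast had p = 0.0362 and an adjusted p = 0.0872. In limma with sample weights, which called 43.0% of all genes, 2 of 7 passed, Erap1 at an adjusted p = 0.0370 and Cast at 0.0324. The call on these litters therefore turned on the tool, while DESeq2 called 0 of 7. Of the 13791 genes to which DESeq2 gave an adjusted p, it called 5082. On the log2 scale, litter means of one condition had an SD of 0.13 for Erap1 and 0.12 for Cast, and pups of one litter an SD of 0.17 and 0.14. Counting error alone gave SDs of 0.10 and 0.087, smaller than the SDs among littermates but not small beside them. In ENSRNOG00000012810 the spread among littermates, 0.12, was no larger than the counting error of 0.13.

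Among littermates, Erap1 and Cast went up and down together. After the litter mean was taken from each pup's log2 CPM, which removes the condition as well as the litter, Pearson's r of Erap1 and Cast over 24 pups was 0.58 (permutation test within litters, two-sided p = 0.00648, adjusted p = 0.0389 over 6 neighbours). Spearman's rho was 0.61 (permutation p = 0.00569, adjusted p = 0.0341). Without the 2 pups farthest from the median of Erap1, a male of spontaneous labor litter 2 and a female of saline pump litter 2, r was 0.55. Leaving out 1 litter at a time gave an r from 0.49 to 0.69, and r was positive in 5 of 6 litters, the exception being saline pump litter 1 at -0.42 over its 4 pups.

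None of the other neighbours did the same. Their r with Erap1 among littermates was 0.18 for ENSRNOG00000027089, 0.055 for ENSRNOG00000012183, 0.0001 for ENSRNOG00000012414, 0.31 for ENSRNOG00000012770 and 0.28 for ENSRNOG00000012810, and the lowest adjusted permutation p among these 5 was 0.473. Their rho values were 0.079, 0.13, 0.11, 0.25 and 0.32 in the same order, with the lowest adjusted permutation p at 0.503. Without the 2 pups farthest from the median, their r was 0.018, 0.23, 0.11, 0.14 and 0.45. Whether the r of Cast differed from theirs was not tested.

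**Figure D4:**
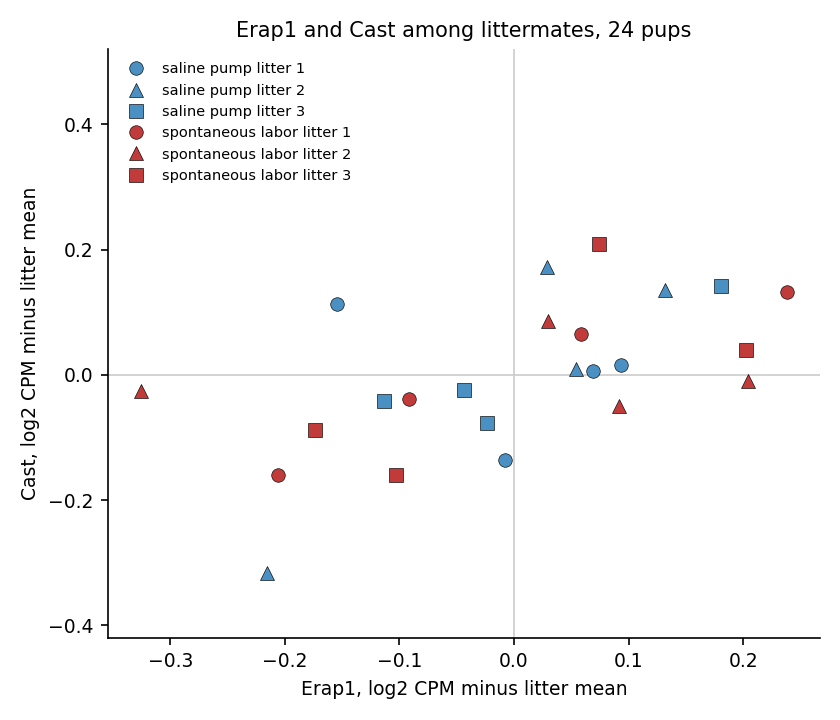
Log2 CPM of Cast against that of Erap1 in 24 pups, each minus the mean of its litter, with saline pump litters in blue and spontaneous labor litters in red and a symbol for each litter. Points run from lower left to upper right (r = 0.58), with a saline pump litter 1 pup above the trend on the left.

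Few genes had an r of this size with Erap1, and a larger share of neighbouring pairs of genes reached it. The first share covers pairs with Erap1 alone, and pairs of other genes that are not neighbours were not examined. Whether being neighbours matters was therefore not tested. Across the 14347 other genes, 0.620% had a higher r with Erap1 among littermates than Cast, and the range from the 5th to the 95th percentile was -0.40 to 0.41. Among 14322 pairs of genes that follow each other on a chromosome, the median r was 0.050 and 4.48% of pairs reached the r of Erap1 and Cast. Among the 1204 pairs that face each other tail to tail with a gap of at most 5000 bases, the median was 0.058 and the share was 5.07%. Genes and pairs share the same 24 libraries and are not independent, so these shares are descriptions.

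Over the 24 pups without removal of litter and condition, the 5 genes most like Erap1 in log2 CPM were Trim21, ENSRNOG00000025166, Cast, ENSRNOG00000023100 and ENSRNOG00000042912, with an r of 0.73, 0.65, 0.64, 0.63 and 0.61. Cast was the only one of the 5 on chromosome 2. Trim21, a ubiquitin ligase that binds antibodies in the cytosol, lies on chromosome 1 and had a mean of 1.08 CPM. Among littermates alone, the r of the 5 with Erap1 was 0.61, 0.51, 0.58, 0.56 and 0.65. This likeness over 24 pups contains the condition difference that chose Erap1, and 3 of the 5 genes had a mean below 3 CPM, where few reads stand behind each value.

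Each of the 22 other ways of fitting the condition gave a higher level of Erap1 and of Cast after spontaneous labor, while the size of the difference moved. Erap1 ranged from 0.14 to 0.41 and Cast from 0.043 to 0.27 on the log2 scale. Without surrogate variables, with the counts summed per litter or with the litter as a random effect, the values of Erap1 were 0.24, 0.23 and 0.22 and those of Cast 0.16, 0.15 and 0.16. All 3 were lower than the fits with surrogate variables over the same 24 pups, for both genes.

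**Figure D5:**
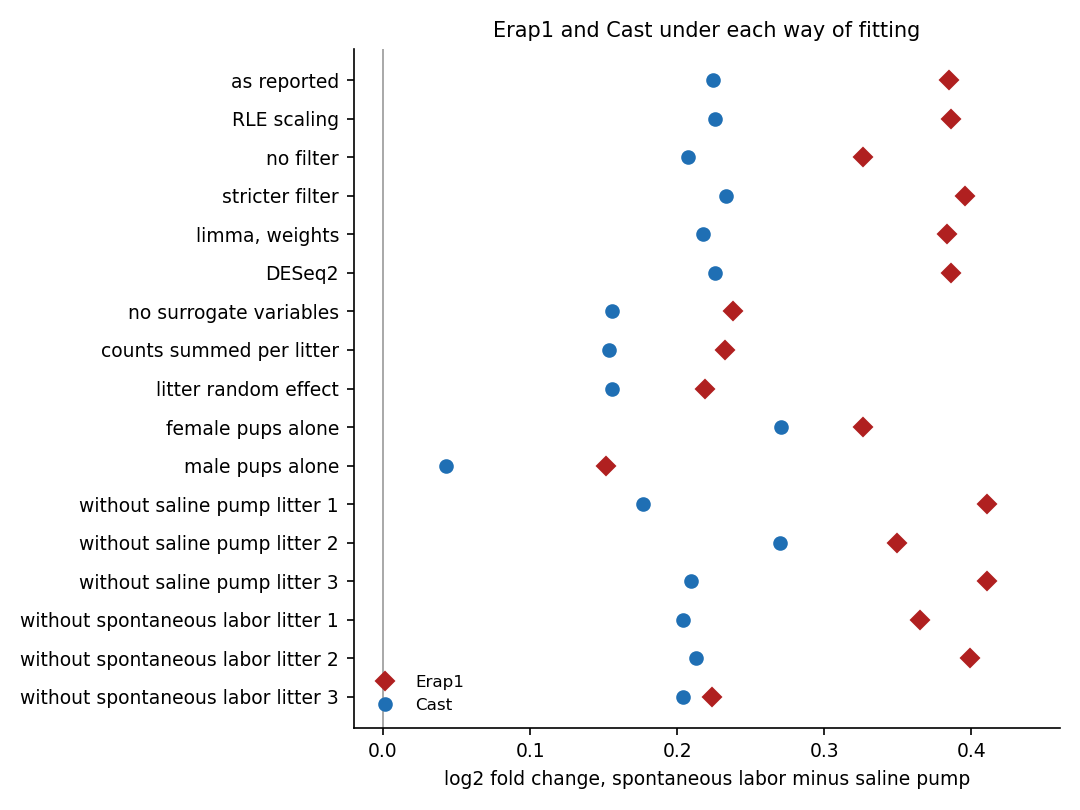
Log2 fold change (spontaneous labor minus saline pump) of Erap1 (red diamonds) and Cast (blue circles) as reported and under 16 other ways of fitting, those named "without" a litter leaving out its 4 pups. Erap1 stays above Cast in every line shown, comes closest to it without spontaneous labor litter 3 (0.22 and 0.20), and has its lowest value of 0.15 in males alone.

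The partners of Erap1 in the class I pathway could hardly be examined. Of 19 genes listed for class I antigen processing 1 could be matched, Calr, the calreticulin gene of the peptide loading complex, which had 713 CPM with the saline pump and 646 CPM after spontaneous labor (log2 fold change -0.11, adjusted p = 0.242 in edgeR). Of 10 M1 aminopeptidases 1 could be matched, Rnpepl1, at 27.1 and 29.3 CPM (log2 fold change 0.16, adjusted p = 0.160). In all, 10 of 85 listed symbols were matched, or 11.8%, so that these lists and the markers of cortical cell types could not be used as a check of pathway or tissue. The matched symbols come from the study's table of genes selected by p-value for the condition in female pups of this data set, so that their condition differences are not free of that choice. Matched markers of astrocytes (Aqp4, mean of 121 CPM), microglia (C1qc, 26.1 CPM) and endothelium (Cldn5, 61.7 CPM) were present in all pups. The 4 matched erythroid markers had lower means after spontaneous labor than with the saline pump. The means were 10.6 against 16.8 CPM for Hba-a3 and 1.72 against 2.75 CPM for Ahsp. They were 5.79 against 7.27 CPM for Slc4a1 and 10.45 against 12.2 CPM for Alas2. Of these 4 markers 0 passed the test in edgeR, with a lowest adjusted p of 0.160. Their part in the differences of Erap1 and Cast was not tested.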

How the data were processed

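Gene counts of 24 cortical libraries were used as deposited, with the CPM and RPKM values that the authors had computed from them. According to the submitters' processing notes, reads were aligned with STAR 2.0.4b to Rnor_5.0 and counted with featureCounts, which the study's methods restrict to uniquely aligned, unambiguous reads. The deposited counts were tested, and CPM and RPKM were only described. Condition was taken from the labels, and the litter from the number in each library's deposited identifier, which was read as the dam. The filter of above 1 CPM in 4 or more samples was applied before fitting. The condition was tested with edgeR 4.0.16 (quasi-likelihood, TMM) with 6 surrogate variables from sva 3.50.0. Sex was tested with litter as a covariate, litters within conditions with sex as a covariate, and the interaction with both. P-values were adjusted by Benjamini-Hochberg over all 14348 genes. Correlations used log2 CPM (prior count 0.5) and 100000 permutations within litters. Alternatives included limma 3.58.1 and DESeq2 1.42.0. The scripts were tested on simulated data. Members and gene lists were chosen with earlier results of these data known. Named were Erap1, its 6 neighbours, those of the 20 nearest genes past a threshold, the 5 genes most like Erap1 and matched members of the lists; 967 symbols came from a table that the study had selected by p-value on the female pups. Intervals cover the spread between pups.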

Additional observations from a re-analysis of the deposited data

Results flagged for a closer look

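Of 70 groups examined over the 7 genes (the 6 pups of each condition and sex, and the 4 pups of each litter), 5 held a pup whose gap to the rest was large for the range of its group by Dixon's criterion. Chance alone gives about 1 in 20 groups, or 3.5 here. ENSRNOG00000027089 had 9.64 CPM in a saline pump female of litter 2, where the next highest female had 7.35 CPM. ENSRNOG00000012183 had 93.5 CPM in a spontaneous labor male of litter 2, with the next at 82.3 CPM, and 72.4 CPM in a spontaneous labor female of litter 3, with the next lowest at 78.5 CPM. ENSRNOG00000012810 had 7.21 CPM in a saline pump female of litter 1, where the next was at 8.70 CPM, and 7.82 CPM in a male of saline pump litter 2, whose littermates had at least 9.01 CPM. No group of Erap1 or Cast was among the 5.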

How the results depend on the processing

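Counts of called genes changed under 2 alternatives. For the condition, 1 neighbour in place of 0 was called without saline pump litter 2 (Cast), and the count was 0 to 1 over all fits that left out a litter and 0 under the others, the 20 nearest genes included. For the litters, 2 of 7 in place of 0 were called with limma, and 0 under the rest. Sex and interaction counts were 0 throughout, and the interaction fits called no gene at all. The log2 fold change of Erap1 was 0.15 in males alone, more than 1 SD between pups (0.19) below the reported value but within 1 SD of the 0.24 of all pups fitted, like the males, without surrogate variables, and 0.14 to 0.41 with a litter left out. Fits that left out a litter without surrogate variables were chosen after seeing the data. Signs reversed for ENSRNOG00000012414 in females alone (0.0013), and for ENSRNOG00000012770 (-0.10) and ENSRNOG00000012810 (-0.039) in males alone. With a litter left out, signs reversed for ENSRNOG00000027089 (-0.056 to 0.14), ENSRNOG00000012183 (-0.0089 to 0.085), ENSRNOG00000012770 (-0.046 to 0.18) and ENSRNOG00000012810 (-0.024 to 0.056). The same held for the sex difference of Erap1 (-0.0056 to 0.083) and Cast (-0.0076 to 0.090). The cause was not tested. Depth limits ENSRNOG00000012770 most. No paired analysis was possible because each dam had 1 condition, and the litter numbers that recur in both conditions name different dams.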
